A study of Homo sapiens with 12 samples.

Results

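YAP silencing in erastin-treated RCC4 cells was measured on 6 of the 12 arrays of the series, 3 with a siRNA against YAP (siYAP) and 3 with a non-targeting siRNA (siNT), all from cells given erastin. Arrays were assigned from their titles and compared across 11963 genes. Each gene was read by the probe set with a single gene symbol that had the highest mean over the 12 arrays. RCC4 cells are a human cell line from a clear cell renal carcinoma and have no working VHL, the protein that marks hypoxia-inducible factors for breakdown. In both groups the cells carried the siRNA for 2 days and then received 1 µM erastin for 7 hours. The other 6 arrays, siYAP and siNT cells given the solvent DMSO for the same time, serve here for comparison and enter the estimate of spread. How many siRNA sequences were used is not given in the sources used here. A consequence of lower YAP and an effect of the siRNA itself cannot be told apart. Replicates are biological triplicates of 1 cell line, and p-values measure the spread between these arrays.

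YAP, encoded by YAP1, is the transcriptional co-activator that the Hippo pathway holds back. When the MST and LATS kinases are inactive it enters the nucleus, binds TEAD factors and switches on genes of growth and adhesion, and TAZ, encoded by WWTR1, is its paralogue. Erastin blocks the cystine importer made of SLC7A11 and SLC3A2. Cells then run short of cysteine and glutathione, the ATF4 amino acid response starts, and iron-dependent peroxidation of membrane lipids can end in ferroptosis.

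YAP1 was lower on every siYAP array. In erastin it read 8.47, 8.52 and 8.65 on siNT arrays 1, 2 and 3, and 4.68, 6.21 and 4.90 on siYAP arrays 1, 2 and 3 (all values here are log2, and triplets are given in array order). The groups did not overlap, and siYAP array 2 kept the most YAP1. The fitted difference was -3.28 (SE 0.308, limma adjusted p = 3.74e-06), and it was -3.76 without that array. WWTR1 read 12.35, 12.19 and 12.27 against 12.22, 12.16 and 12.24, with overlapping groups and a difference of -0.06 (adjusted p = 0.456). Of the 2 other probe sets of WWTR1, 1 was called higher.

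How strongly each siYAP array responded was judged with genes picked by their difference between the DMSO groups. The fit estimated the spread of each gene from all arrays, erastin arrays included, so the choice was not fully independent of them. Over all 2165 genes called higher in DMSO the median difference from the siNT erastin mean was 0.374, 0.350 and 0.381 on siYAP erastin arrays 1, 2 and 3, and over all 1865 called lower it was -0.362, -0.323 and -0.341. For 213 genes at least 2-fold lower after silencing in DMSO, it was -1.28, -1.004 and -1.22. Array 2 had the smallest fall of the 3 for 192 of these 213 genes (90.1%). For 111 genes at least 2-fold higher in DMSO the medians were 1.27, 1.27 and 1.33, and array 2 had the smallest rise for 59 of them. On each array all 213 and all 111 of these genes lay beyond all 3 siNT erastin arrays. Of the 2165 genes called higher in DMSO 2003, 1918 and 1960 lay beyond them on arrays 1, 2 and 3, and of the 1865 called lower 1702, 1632 and 1667, so array 2 had the fewest in both directions. Whether its higher YAP1 bears on this was not tested.

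**Figure D1:**
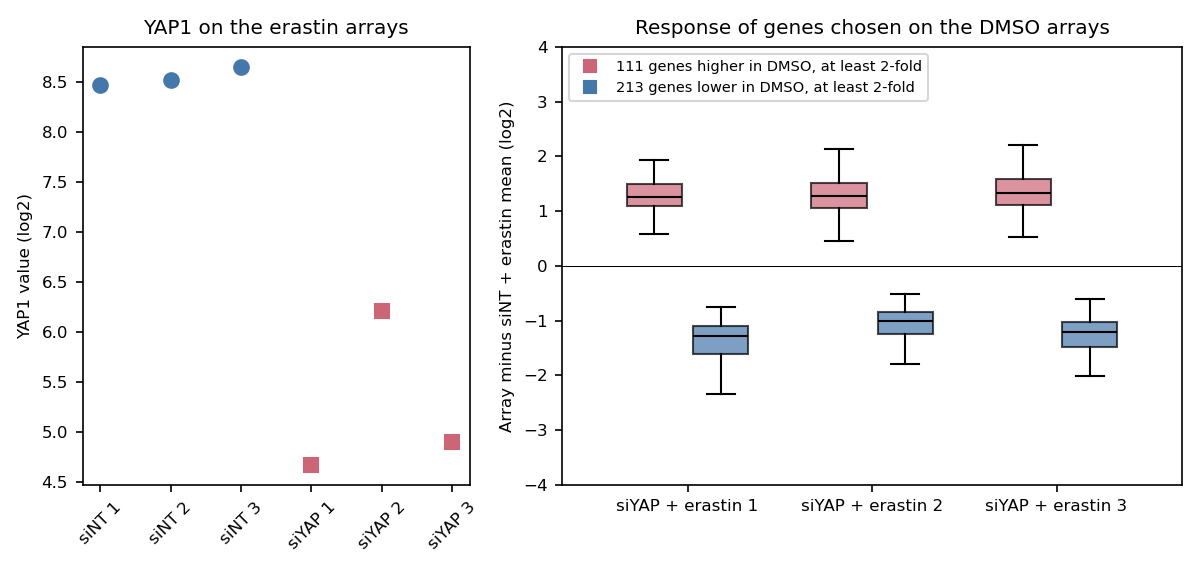
Left, YAP1 (log2) on the 6 erastin arrays (circles siNT, squares siYAP); siYAP array 2 stands at 6.21 against 4.68 and 4.90. Right, per siYAP erastin array, the difference from the siNT erastin mean (log2) of the 111 genes at least 2-fold higher and the 213 at least 2-fold lower in DMSO, with boxes from the lower to the upper quartile, a line at the median and whiskers to the last gene within 1.5 box lengths (genes beyond are not drawn); the falls are shallower on array 2.

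After silencing, 2397 of the 11963 genes were higher (20.0%) and 1776 lower (14.8%) at an adjusted p under 0.05 in limma, 4173 in all (34.9%). Most differences were small: 67.7% of these genes moved by less than 0.5, and 316 genes (2.64%) moved at least 2-fold, 144 up and 172 down. Only 7 genes rose and 16 fell at least 4-fold. On 3027 genes (25.3%) all siYAP arrays lay above all siNT arrays, and on 2352 (19.7%) all lay below. The median difference over all genes was 0.01. Of the 3988 brightest genes 29.8% were higher and 24.3% lower, against 5.24% and 2.98% of the 3988 dimmest.

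The ACTB measure of RNA integrity moved with the comparison, and that of GAPDH did not. The log2 difference between the 3' and 5' control probe sets of ACTB, which grows as RNA breaks down or is copied less far, was 3.35 to 3.71 on the siYAP erastin arrays and 1.49 to 2.82 on the siNT erastin arrays, with no overlap. The same difference for GAPDH overlapped, at 0.127 to 0.203 and 0.0702 to 0.222. With the ACTB difference as a covariate 3065 genes were called, 2839 of them called in the same direction without it. Counts of list members that this covariate moved by over 1.5 times are given with it. Markers of other cells stayed at the low end of the scale. Median levels over the 6 arrays were 4.50 to 4.78 for 10 immune markers, 4.27 to 4.46 for 11 endothelial markers and 4.71 to 5.11 for 12 fibroblast and pericyte markers. In limma 1 immune marker (ITGAM, 0.54, whose other probe set was not called) and 1 fibroblast marker (ACTA2, 0.42, likewise) were called higher, while 0 endothelial markers were called, also at an unadjusted p of 0.05. Without siNT array 2, 2 immune markers were higher, and without siNT array 3, 2 fibroblast markers were higher and 1 lower. With the mean of probe sets 0 fibroblast markers were higher. The summed marker levels were 44.9 to 47.8 on siNT and 46.5 to 47.3 on siYAP arrays for immune, 47.4 to 50.4 and 48.2 to 48.9 for endothelial and 58.8 to 61.1 and 60.1 to 61.0 for fibroblast markers, overlapping in each case. Tubule and renal carcinoma markers had medians of 7.81 to 8.08 on siNT and 8.73 to 8.88 on siYAP arrays and summed levels of 171.0 to 171.3 and 173.4 to 174.2, with no overlap in either. This was no general rise: over these 22 markers the median difference per gene was 0.04, with 8 called higher, 3 lower and 11 not called. The arrays measure bulk RNA, in which fewer cells of a kind and less RNA per cell cannot be told apart.

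Most genes called under erastin were also called in DMSO. The DMSO differences come from arrays that this comparison does not share, but both calls used the same spread per gene, estimated from all arrays. The calls in the treatments are therefore not fully independent. In DMSO, 2165 genes were higher (18.1%) and 1865 lower (15.6%). Of the 4173 genes called under erastin, 3134 were called in the same direction in DMSO, 6 in the opposite direction and 1033 not at all, and 898 of those 1033 had the same sign. Of the 316 genes that moved at least 2-fold under erastin, 314 were called in the same direction in DMSO. The remaining 2, singled out after their values were seen, are the actin pseudogene ACTBP9 and B3GNT2, which makes poly-lactosamine chains. ACTBP9 read 7.71, 7.78 and 8.29 on siNT arrays and 6.95, 6.89 and 6.92 on siYAP arrays under erastin. B3GNT2 read 6.30, 6.25 and 7.20 against 5.52, 5.67 and 5.48. In both genes siNT array 3, whose ACTB difference of 1.49 was the lowest of the 6, was the highest. With the ACTB covariate their differences shrank from -1.01 and -1.03 to -0.44 (adjusted p = 0.065) and -0.29 (adjusted p = 0.189), so neither call held. That covariate did not overlap between the siYAP and siNT erastin arrays, and ACTBP9 is itself an actin sequence. RNA quality and silencing cannot be told apart here. In DMSO both differed by -0.08.

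**Figure D2:**
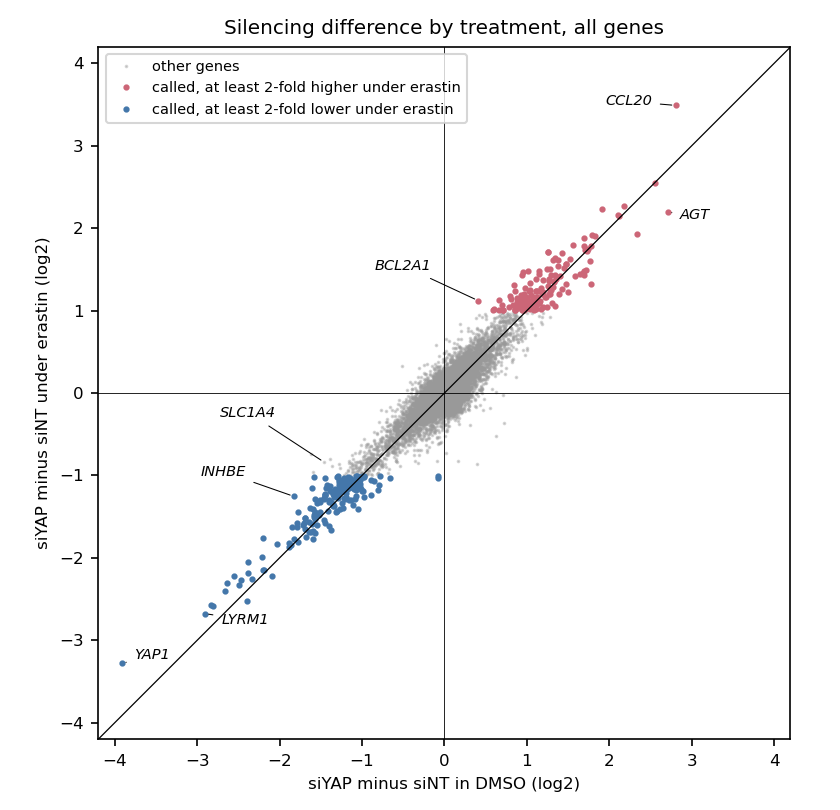
Log2 difference siYAP minus siNT under erastin (vertical) against that in DMSO (horizontal) for all 11963 genes; coloured points are the 144 genes at least 2-fold higher and the 172 at least 2-fold lower under erastin, and the line marks equal differences. CCL20 lies above the line (3.49 against 2.81) and AGT below it (2.19 against 2.71).

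The largest rise was that of CCL20, the ligand of the chemokine receptor CCR6. It read 5.55, 5.02 and 5.42 on siNT arrays and 8.71, 8.80 and 8.96 on siYAP arrays, 11.2-fold higher (3.49, SE 0.135, adjusted p = 8.02e-09). The lowest siYAP array stood more than 3 log2 units above the highest siNT array. SCN3A, a voltage-gated sodium channel, read 7.29, 7.16 and 7.46 against 9.91, 9.79 and 9.85. CCN3, a secreted matricellular protein, went from 6.78, 6.63 and 7.32 to 9.15, 9.17 and 9.21. AGT, the precursor of angiotensin, read 7.31, 7.33 and 7.35 against 9.65, 9.40 and 9.53, a 4.58-fold rise. These 4 genes were chosen among those with non-overlapping arrays, and in each the siYAP arrays were close to each other.

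Among the other large rises, MMP1, a collagenase, read 9.00, 9.08 and 9.09 against 10.82, 10.80 and 10.90 (adjusted p = 1.41e-09). PTX3, a soluble pattern recognition protein, rose by 2.15, ENPP2, the autotaxin gene that makes lysophosphatidic acid, by 1.88, and the protease inhibitor gene SERPINB7 by 1.90. HS3ST1, a heparan sulfate sulfotransferase, rose by 1.79, with neither of its 2 other probe sets called. Inside the cell, DESI2, a small deubiquitinating and desumoylating enzyme, rose by 1.91, the p53-induced lysosomal gene DRAM1 by 1.75, and CPEB3, an mRNA-binding regulator of translation, by 2.24 from a mean of 4.14 near the bottom of the scale. The interferon-induced genes IFI27 (2.16) and IFITM1 (1.93) and the histone gene H2AC6 (1.80) complete the 15 largest rises.

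After YAP1, the deepest fall was that of LYRM1, a small mitochondrial LYR-motif protein. It read 10.54, 10.71 and 10.75 on siNT arrays and 7.65, 8.57 and 7.76 on siYAP arrays (-2.68, SE 0.178). OSTM1, the partner of a lysosomal chloride exchanger, read 9.98, 9.86 and 10.13 against 7.20, 7.76 and 7.28. PLOD2, which hydroxylates collagen lysines for crosslinking, read 11.49, 11.47 and 11.43 against 8.71, 9.67 and 8.79. The groups were far apart in all 3 genes, and siYAP array 2 was again the least lowered. SUV39H2, a histone H3 lysine methyltransferase, fell by 2.58 to a mean of 3.26 at the dim end of the scale, which leaves the size of its fall uncertain.

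SLC4A4, the sodium bicarbonate cotransporter of the proximal tubule, read 9.44, 9.42 and 9.57 against 6.94, 7.61 and 6.91. SLC11A2, the iron importer DMT1, read 9.32, 9.31 and 9.33 against 6.74, 7.56 and 6.74. CXADR, the coxsackievirus and adenovirus receptor of tight junctions, fell by 2.26. PEX2, a ubiquitin ligase of peroxisome import, fell by 2.53, SPAST, a microtubule-severing enzyme, by 2.22, and RCBTB1 by 2.27. The remaining large falls were those of LMNB1 (lamin B1, -2.22), SKP2 (the substrate receptor that marks p27 for breakdown, -2.18), E2F5 (-2.15) and DCK (deoxycytidine kinase, -2.15).

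**Figure D3:**
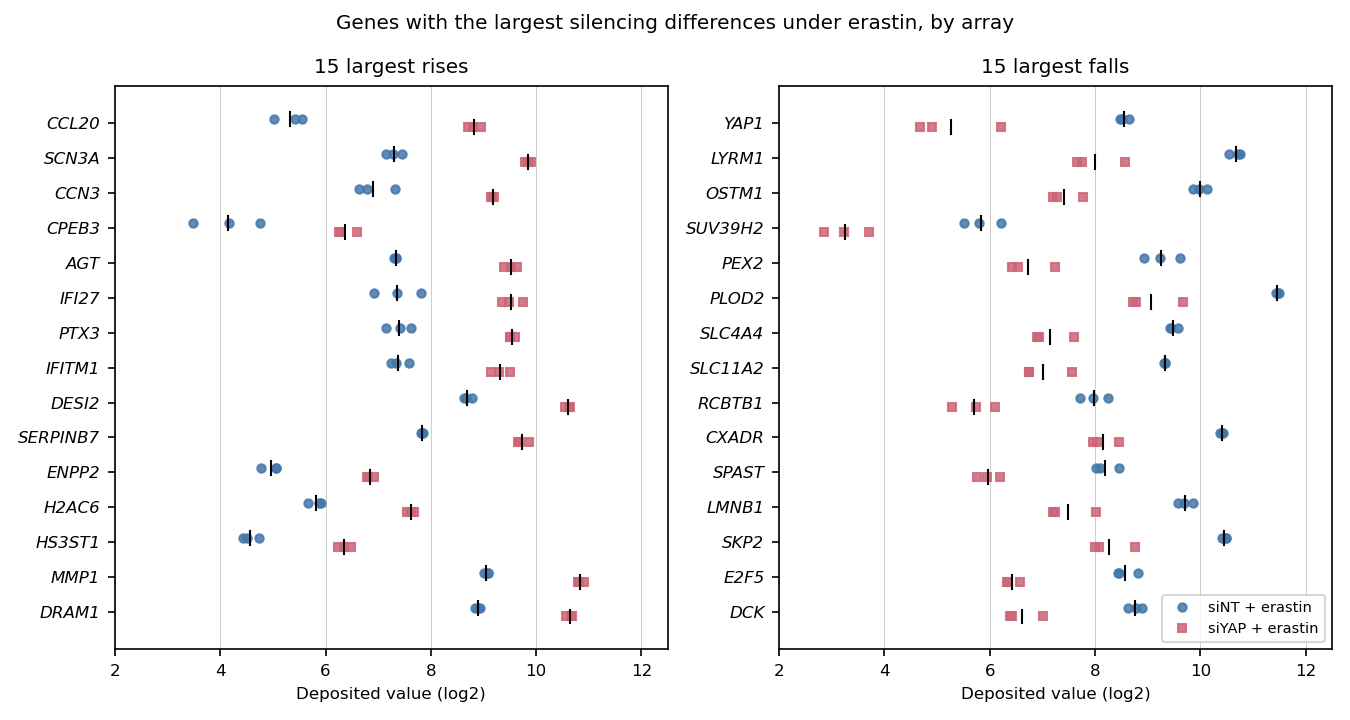
Values (log2) of the 15 largest rises and 15 largest falls on each erastin array (circles siNT, squares siYAP, bars group means). The 30 genes were chosen among those whose 3 siYAP squares lie apart from the 3 siNT circles. In the falls the square nearest to the circles is mostly siYAP array 2.

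DNA replication genes fell almost without exception. Of 27 measured genes of the MCM helicase and its loading, 26 fell (96.3%, against 14.8% of all genes), with a median difference of -0.77 against 0.01 over all genes. CDC45, which with MCM and GINS forms the active helicase, read 7.33, 7.42 and 7.49 against 5.42, 5.89 and 5.48, a 3.53-fold fall. MCM10 fell by 1.69, the loader CDC6 by 1.44, MCM2 by 1.27 and the fork protein WDHD1 by 1.07. Of 28 genes of DNA polymerases, the sliding clamp and nucleotide supply, 27 fell, with a median of -0.74. PRIM1, the primase that starts each new strand, read 9.07, 9.16 and 9.08 against 7.20, 7.83 and 7.40. DUT, which keeps uracil out of DNA, read 12.21, 12.21 and 12.22 against 10.48, 10.98 and 10.60, and the ribonucleotide reductase subunit gene RRM2 fell by 1.29 and POLE2 by 1.29. None of these groups overlapped, as in all 316 genes called and at least 2-fold different.

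POLA1, the catalytic subunit of polymerase alpha, read 8.02, 8.04 and 8.11 against 6.50, 6.81 and 6.53 (-1.44, SE 0.077). Its promoter is shown because it carries an E2F motif, the letters that E2F factors of the G1/S transition are known to bind; it lies at chrX:24693741-24693828 on the plus strand of GRCh38.p14 (RefSeq), bases 177 to 90 before the start, with the motif in capitals:
POLA1: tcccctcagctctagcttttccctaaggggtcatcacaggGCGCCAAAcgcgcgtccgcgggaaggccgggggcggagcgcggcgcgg
The search took TTTCCCGC or TTTGGCGC on either strand of the 300 bases around the first listed start, and POLA1 matches on the reverse strand. Of all 27305 RefSeq promoters 2.31% held it. Promoters were found for 2006 of the 2397 higher genes and 1477 of the 1776 lower genes, and 2.59% of the former and 5.96% of the latter held the motif. Among genes lower by at least 2-fold it was in 15 of 144 promoters (10.4%, 95% Wilson interval 6.41 to 16.5%). Among those higher by at least 2-fold it was in 0 of 116 (Wilson interval up to 3.21%). Of 49 promoters of the 55 replication genes 17 held it. These matches describe letters in a window and are not measured binding.

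Mitotic genes fell too. All 29 measured kinesin and spindle genes fell (median -0.95), as did 28 of 34 kinetochore and checkpoint genes (median -0.71) and 21 of 24 mitotic cyclins and regulators (median -0.65). Over all genes 14.8% fell. KIF15, a spindle motor, read 7.33, 7.33 and 7.48 against 5.44, 6.02 and 6.12. CDK1, the kinase that drives entry into mitosis, read 11.42, 11.38 and 11.49 against 10.00, 10.27 and 10.13. CCNB2, a cyclin that activates it, read 10.52, 10.52 and 10.42 against 9.10, 9.32 and 9.10. Each of these 3 genes was lower on all siYAP arrays by more than 1 log2 unit. HMMR fell by 1.41, KIF23 by 1.40, CEP55 by 1.35, CDC25C by 1.33, TPX2 by 1.26, TOP2A by 1.19 and the APC/C inhibitor gene FBXO5 by 1.15. At the kinetochore CENPF fell by 1.24, KNTC1 by 1.19, CENPU by 1.16 and DSN1 by 1.14.

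HJURP, the chaperone that places the centromeric histone CENPA, fell the most among kinetochore genes, from 9.23, 9.25 and 9.32 to 7.45, 7.70 and 7.41. Its promoter is shown because it holds both a CHR element and CCAAT boxes, letters that G2/M gene regulators are known to use; it lies at chr2:233854563-233854686 on the minus strand of GRCh38.p14, bases 151 to 28 before the start, with both motifs in capitals:
HJURP: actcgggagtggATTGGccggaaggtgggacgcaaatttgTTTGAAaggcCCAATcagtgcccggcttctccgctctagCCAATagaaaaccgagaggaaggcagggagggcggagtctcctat
In this stretch TTTGAA occurs at bases 111 to 106 before the start and CCAAT at 3 places, the first on the reverse strand, and they do not overlap. Of 73 promoters of the 87 mitotic genes 44 held TTTGAA on either strand (60.3%, Wilson interval 48.8 to 70.7%), against 15.4% of all promoters of the table, 8.97% of the promoters of higher genes and 13.8% of those of lower genes. Over only the bases before the start the shares were 43.8% and 13.6% of all promoters. CCAAT was in 54 of the 73 (74.0%), against 35.7%, 35.1% and 43.6%.

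Fewer members passed among genes of chromosome structure, repair and the nuclear pore. Of 18 cohesin and condensin genes 12 fell (66.7%, against 14.8% of all genes) and 1 rose (5.56%, against 20.0%). The rises were 2 without siNT array 3 or with array weights, quantile normalization, a trended robust variance or dim probe sets removed. The 5 with the largest differences were the condensin genes NCAPG (-1.07), NCAPH (-1.02), NCAPD2 (-0.86), NCAPG2 (-0.80) and NCAPD3 (-0.65). Of 28 genes of homologous recombination and the Fanconi pathway 17 fell (60.7%) and 3 rose (10.7%). The exonuclease gene EXO1 fell by 1.77, RAD51AP1 by 1.34, FANCI by 1.26 and the helicase gene BLM by 1.15. FANCF went the other way, reading 7.51, 7.34 and 7.84 against 8.48, 8.52 and 8.55. Of 41 nucleoporins, importins and lamina genes 26 fell (63.4%) and 6 rose (14.6%, a smaller share than the 20.0% of all genes). The rises were 3 with the ACTB covariate, without siNT array 2 or without siYAP array 1. LMNB1 led, then NUP54 (-1.59, its other probe set not called), NUP50 (-1.08), KPNA2 (-0.88) and NUP58 (-0.85).

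Of 28 genes of G1 cyclins, CDK inhibitors, RB and E2F, 15 fell (53.6%, against 14.8% of all genes) and 3 rose (10.7%, against 20.0%). SKP2 read 10.48, 10.49 and 10.41 against 8.08, 8.75 and 8.00. CCNE2, the cyclin that partners CDK2 at the start of S phase, read 8.31, 8.12 and 8.53 against 5.95, 6.90 and 6.58. The RB relative RBL1 fell by 1.28 and the G1 kinase gene CDK6 by 1.18. Groups were separate in all 4 genes, as in all 316 genes called and at least 2-fold different.

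Of 37 measured histone genes 8 rose (21.6%) and 6 fell (16.2%), shares near those of all genes (20.0% and 14.8%), with a median of -0.04. H2AC6 read 5.67, 5.88 and 5.91 against 7.63, 7.55 and 7.68, and H2BC12 read 8.33, 8.38 and 8.31 against 10.08, 9.95 and 10.07. H2BC5 rose by 1.64 and H2BC6 by 1.01, while CENPA fell by 0.92. All 3 siYAP arrays were above all siNT arrays for the 4 named genes that rose, as in every gene called higher by at least 2-fold. Genes of the histone clusters are near copies of each other, which leaves their separate values uncertain.

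Most measured genes of the ATF4 arm, which supplies amino acids under starvation, were lower after silencing in erastin. Of 35 regulators and targets of ATF4 and CHOP 21 fell (60.0%, against 14.8% of all genes) and 3 rose (8.57%, against 20.0%). The median was -0.34. In DMSO 19 fell and 5 rose, with a median of -0.36. The regulator gene ATF3, added outside the naming rule, went the other way and had the highest value of the list (0.54), with means of 9.23 in siNT and 9.77 in siYAP cells under erastin. INHBE, an activin subunit, read 7.79, 7.58 and 8.06 against 6.47, 6.58 and 6.61. DDIT4, an inhibitor of mTORC1, read 11.29, 11.14 and 11.38 against 10.18, 10.06 and 10.04. CTH, which makes cysteine from cystathionine, read 8.85, 8.93 and 9.25 against 7.89, 8.04 and 7.95, so that its mean in siYAP cells with erastin (7.96) was near that of siNT cells in DMSO (7.83). The arginine transporter gene SLC7A1 fell by 0.91 and SLC1A4, a transporter of serine and other neutral amino acids, by 0.84. Among cytosolic aminoacyl-tRNA synthetases 8 of 16 fell, 5 with the ACTB covariate, led by YARS1 (-0.46), SARS1 (-0.35) and AARS1 (-0.29). AARS1 did not hold with that covariate (adjusted p = 0.245).

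ASNS, asparagine synthetase, is the largest called fall of the list with a CARE element, the C/EBP-ATF composite letters, before its start. It lies at chr7:97872429-97872516 on the minus strand of GRCh38.p14, bases 108 to 21 before the start, with the element in capitals:
ASNS: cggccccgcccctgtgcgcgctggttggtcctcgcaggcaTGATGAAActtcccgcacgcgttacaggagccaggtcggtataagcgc
ASNS fell by 0.80. TGATGNAA on either strand was in 7 of 29 promoters of the list (24.1%, Wilson interval 12.2 to 42.1%), against 3.67% of all promoters of the table. It was in 4 of 18 promoters of members that fell and 2 of 2 of members that rose.

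**Figure D4:**
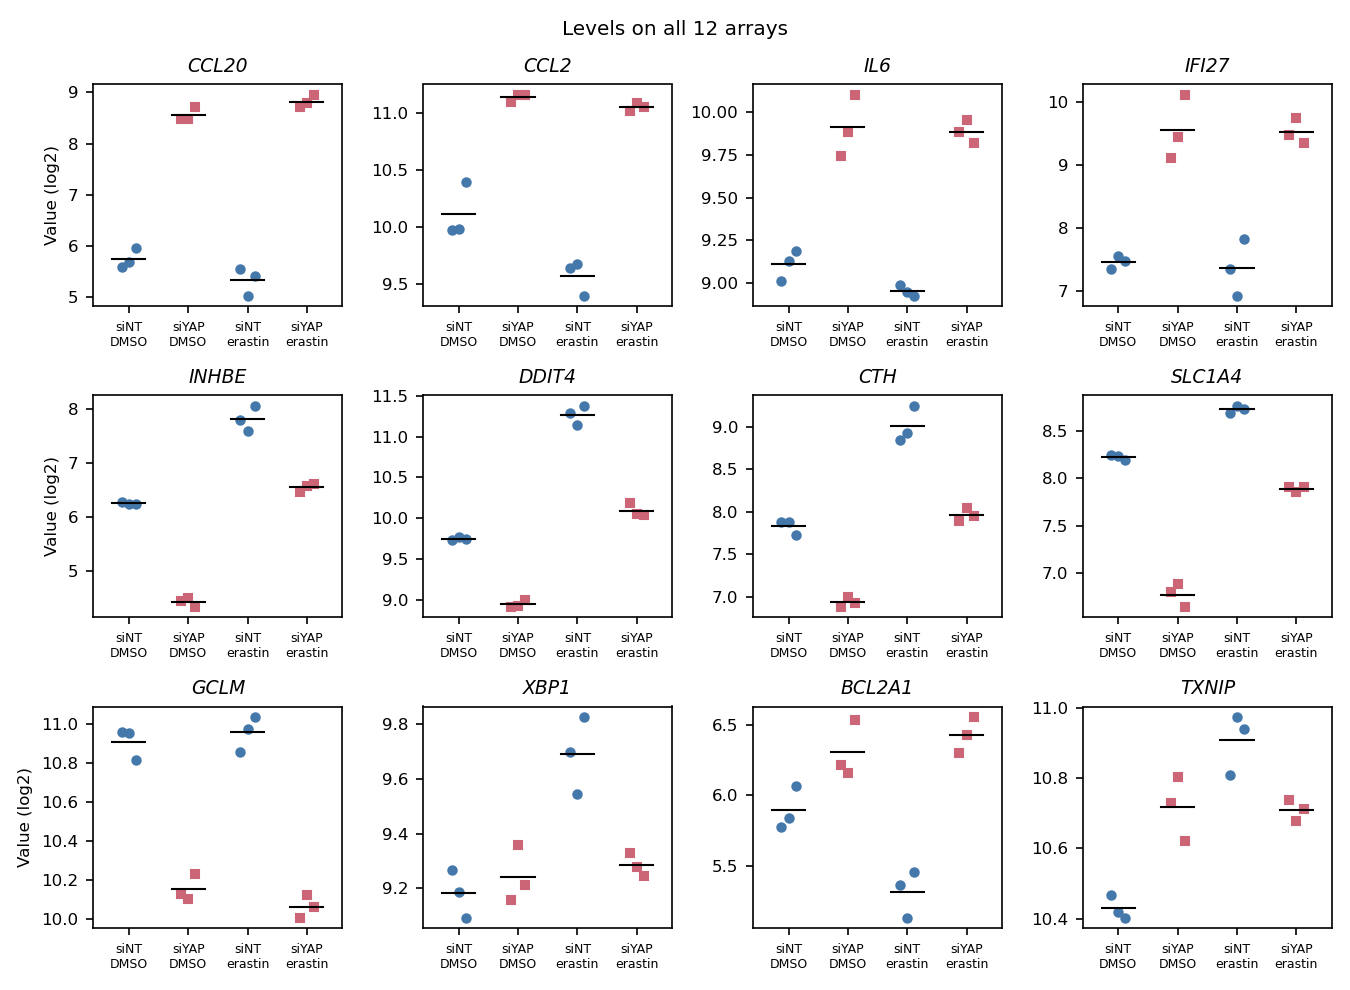
Values (log2) of 12 genes on all 12 arrays, 3 per group (circles siNT, squares siYAP, bars group means; the vertical scale differs between panels). INHBE, DDIT4, CTH and SLC1A4 are lower in siYAP than in siNT cells under both treatments, CCL20, CCL2, IL6 and IFI27 are higher under both, XBP1 differs between siRNAs under erastin (9.69 against 9.28) and is 9.18 and 9.24 in DMSO, and TXNIP is higher in siYAP cells in DMSO and lower under erastin.

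Among genes of cystine, glutathione and redox defence more rose than fell. Of 34 glutathione, cystine and selenoprotein genes 11 rose (32.4%, against 20.0% of all genes) and 4 fell (11.8%, against 14.8%). The rises were 6 under the ACTB covariate and 7 without siYAP array 1. GCLM, the modifier subunit of the enzyme that starts glutathione synthesis, read 10.86, 10.97 and 11.04 against 10.00, 10.12 and 10.06. GPX7, a peroxidase of the endoplasmic reticulum, read 6.01, 5.89 and 6.11 against 7.15, 7.30 and 7.28. The transferase genes MGST2 and GSTA4 rose by 0.77 and 0.59. SLC7A11, the target of erastin, and GPX4, which reduces lipid hydroperoxides, were added outside the naming rule. SLC7A11 read 9.76, 9.59 and 9.81 against 9.90, 9.89 and 9.88, non-overlapping but not called (0.17, adjusted p = 0.0714). In DMSO SLC7A11 was called lower after silencing (-0.22, limma adjusted p = 0.0231), and its interaction did not pass (limma adjusted p = 0.354). GPX4 read 11.84, 11.80 and 11.70 against 12.04, 12.08 and 12.07 and was called (0.28, adjusted p = 0.00981), but not with the ACTB covariate (adjusted p = 0.137).

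Among 25 NRF2 regulators, reductases and NADPH-supplying enzymes 9 rose (36.0%, against 20.0% of all genes) and 2 fell (8.0%, against 14.8%). The aldo-keto reductase AKR1C3 read 10.58, 10.46 and 10.49 against 11.58, 11.49 and 11.62, and AKR1B10 rose by 1.03, AKR1C1 by 0.70 and AKR1C2 by 0.65, although these paralogues are close in sequence and their separate values are uncertain. TKT, transketolase of the pentose phosphate pathway, fell by 0.52. The 2 falls of the list were 1 with the ACTB covariate, the replicate block or the 6 erastin arrays alone and without siNT array 2 or 3 or siYAP array 2 or 3, and 5 with a trended robust variance.

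Of 27 iron and heme genes 9 fell (33.3%, against 14.8% of all genes) and 6 rose (22.2%, near the 20.0% of all genes). CPOX, a heme synthesis enzyme, read 9.63, 9.20 and 9.74 against 7.19, 8.14 and 7.29. NCOA4, which delivers ferritin to lysosomes for iron release, read 11.84, 11.82 and 11.81 against 10.99, 11.07 and 11.004, and the iron chaperone gene PCBP1 fell by 0.69. CISD1, an iron-sulfur protein of the mitochondrial outer membrane, rose by 0.63. NCOA4 and the DMT1 gene SLC11A2 were lower on all 3 siYAP arrays, as were 19.7% of all genes. Both were named for the size of their falls.

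Of 35 genes of polyunsaturated lipids and their peroxidation 7 rose (20.0%, the same share as all genes) and 4 fell (11.4%, against 14.8%). ELOVL6, a fatty acid elongase, read 8.04, 7.82 and 8.39 against 9.53, 9.46 and 9.58. EMP1, a membrane protein, rose by 1.39, ALOX5, a lipoxygenase, by 0.87 from a mean of 4.51 near the bottom of the scale with none of its 3 other probe sets called, and ACSL5 by 0.67. SCD, which makes monounsaturated fatty acids, fell by 0.68. Of 22 cholesterol genes 8 fell (36.4%, against 14.8% of all genes) and 4 rose (18.2%, near the 20.0% of all genes). ACAT2 fell by 1.21, the regulator gene SREBF2 by 1.03, IDI1 by 0.81 and EBP by 0.57, and SC5D rose by 0.56, not called on its other probe set. In 22 peroxisome genes 3 rose and 3 fell (13.6% each, against 20.0% and 14.8% of all genes), and the rises were 5 without siNT array 3 or with array weights. PEX2 read 8.92, 9.23 and 9.62 against 6.42, 7.23 and 6.53, PEX6 fell by 0.47 and PEX19 by 0.43, and ACOX3 rose by 0.38, which did not pass without siYAP array 3 (adjusted p = 0.0567).

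Chemokine genes rose on the siYAP arrays. Of 19 measured CC and CXC chemokines 11 rose (57.9%, against 20.0% of all genes), with a median of 0.61, and in limma 0 were lower, also at an unadjusted p of 0.05; 1 was called lower without siNT array 3. CXCL14 read 7.06, 6.83 and 6.78 against 8.33, 8.58 and 8.48. CCL2, which draws monocytes, read 9.64, 9.68 and 9.39 against 11.01, 11.08 and 11.05, and the neutrophil chemokine gene CXCL2 rose by 0.97. CXCL8 rose by 0.92, but its other probe set was not called and the mean of both did not pass (adjusted p = 0.119). CCL20 stands here because its promoter holds a kappa-B motif, the letters that NF-kB dimers are known to bind; it lies at chr2:227813723-227813812 on the plus strand of GRCh38.p14, bases 119 to 30 before the start, with the motif in capitals:
CCL20: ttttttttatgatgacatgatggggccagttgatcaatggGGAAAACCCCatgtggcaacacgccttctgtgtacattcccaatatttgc

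Cytokine and feedback genes of NF-kB followed in part. Of 43 measured 17 rose (39.5%, against 20.0% of all genes) and 4 fell (9.30%, against 14.8%). The falls were 2 with the ACTB covariate, without siNT array 3 or without siYAP array 1. IL18 read 8.59, 8.45 and 8.46 against 9.97, 9.86 and 10.02, and IL6 read 8.99, 8.95 and 8.92 against 9.88, 9.95 and 9.82. The adaptor gene TRAF1 rose by 0.88, and IL13RA1, a receptor chain for interleukin 13, fell by 0.999. GGGNNNTTCC on either strand was in 15 of 50 promoters of the chemokine and cytokine lists (Wilson interval 19.1 to 43.8%), against 6.47% of all promoters of the table. It was in 11 of 22 promoters of members that rose, 0 of 4 of those that fell and 4 of 24 of those not called.

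Of 42 interferon-stimulated genes 26 rose (61.9%, against 20.0% of all genes) and 3 fell (7.14%, against 14.8%), with a median of 0.40. IFI27, a mitochondrial protein strongly induced by interferon, read 7.35, 6.91 and 7.82 against 9.48, 9.75 and 9.34. IFI6 read 8.65, 8.60 and 9.16 against 10.18, 10.31 and 9.91, and ISG15, a ubiquitin-like modifier, read 9.20, 9.20 and 9.30 against 10.43, 10.56 and 10.33. The siYAP arrays were all higher, and siNT array 3 was the highest of its group in each. The nuclease gene ISG20 rose by 1.27. IFI27 is shown because 2 ISRE core motifs, the letters of interferon response elements, lie close to each other before its start, at chr14:94110601-94110689 on the plus strand of GRCh38.p14, bases 135 to 47 before the start, with both in capitals:
IFI27: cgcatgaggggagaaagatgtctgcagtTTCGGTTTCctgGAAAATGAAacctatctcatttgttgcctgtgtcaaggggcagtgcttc
GAAANNGAA on either strand was in 8.29% of all promoters of the table. Promoters were found for 33 of the 42 members, below the minimum of 80% set for a share of a list, so none is given.

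Of 23 antigen presentation genes 9 rose (39.1%, against 20.0% of all genes) and 1 fell (4.35%, against 14.8%). With the mean of probe sets 2 fell. HLA-DMA, which loads peptides onto class II molecules, read 6.78, 7.08 and 7.02 against 8.11, 8.07 and 8.06. HLA-DRB1 rose by 0.72, HLA-E by 0.52 and the invariant chain gene CD74 by 0.41, while the peptide transporter gene TAP2 fell by 0.56. HLA genes resemble each other closely, which leaves their separate values uncertain.

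The YAP/TAZ target list moved both ways despite the loss of YAP1. Of 23 measured 9 fell (39.1%, against 14.8% of all genes) and 6 rose (26.1%, against 20.0%), with a median of -0.13. DLC1 read 10.17, 10.24 and 10.32 against 8.57, 8.69 and 8.47. AMOTL2, a scaffold that holds YAP outside the nucleus and is itself a target, read 10.49, 10.44 and 10.39 against 9.89, 9.92 and 9.91, and GADD45B fell by 0.54. CCN2, a matricellular target, went up, from 7.58, 7.43 and 7.62 to 8.02, 8.00 and 7.97. ANKRD1, a muscle-type ankyrin repeat protein, read 6.65, 6.46 and 6.87 against 7.41, 7.23 and 7.37. Its promoter is shown because it holds a TEAD motif while the gene rose; it lies at chr10:90921170-90921255 on the minus strand of GRCh38.p14, bases 168 to 83 before the start, with the motif in capitals:
ANKRD1: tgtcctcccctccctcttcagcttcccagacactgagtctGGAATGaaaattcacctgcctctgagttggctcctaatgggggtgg
GGAATG on either strand was in 14.05% of all promoters of the table, and only 15 of the 23 targets had a promoter, so no share of the list is given.

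Of 27 Hippo kinases, scaffolds and TEAD factors, YAP1 among them, 6 rose and 6 fell (22.2% each, against 20.0% and 14.8% of all genes), with 2 rises under the ACTB covariate. MOB1A, the activator of LATS kinases, read 9.82, 9.87 and 9.81 against 7.84, 8.29 and 7.94, and the related kinase gene STK38 fell by 0.56, with neither of its 2 other probe sets called. VGLL4, which competes with YAP for TEAD, read 8.71, 8.72 and 8.72 against 9.41, 9.36 and 9.48. TEAD1 rose by 0.63, which did not pass with the ACTB covariate (adjusted p = 0.0644).

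Of 33 p53 targets and BCL2 family genes 13 rose (39.4%, against 20.0% of all genes) and 6 fell (18.2%, against 14.8%). PMAIP1, the pro-apoptotic BH3 protein NOXA, read 11.56, 11.65 and 11.93 against 9.84, 10.31 and 10.03, and MCL1, the anti-apoptotic protein it binds, read 11.34, 11.29 and 11.39 against 9.97, 10.42 and 9.98. Both sides of this pair were lower on every siYAP array. BCL2A1, another anti-apoptotic member, rose by 1.12, TP53I3 by 1.42 and SESN1 by 0.62. Of 32 autophagy genes 10 rose (31.25%, against 20.0% of all genes) and 5 fell (15.6%, against 14.8%). The falls were 3 with the ACTB covariate, without siNT array 1 or without siYAP array 2 or 3. BECN1, a subunit of the kinase complex that starts autophagosomes, read 9.63, 9.65 and 9.64 against 8.48, 8.78 and 8.62. ATG2B rose by 0.95, ATG4A by 0.61 and WIPI2 by 0.47, with neither of the 2 other WIPI2 probe sets called. LAMP2 has no settled direction: its brightest probe set was higher by 0.64 and the 2 others were called lower, with a mean of all at -0.73.

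Of 46 collagens and matrix glycoproteins 11 fell (23.9%, against 14.8% of all genes) and 6 rose (a smaller share than the 20.0% of all genes), 7 and 3 with the ACTB covariate and 17 falls with array weights. COL7A1, the anchoring fibril collagen, read 8.75, 8.76 and 8.77 against 8.05, 8.09 and 7.88. COL5A2 (-1.44), COL6A3 (-0.71) and FBN1 (1.06) had a group mean under 5, near the bottom of the scale, and the other probe sets of COL5A2 and FBN1 were not called. Of 21 collagen-modifying enzymes 8 fell (38.1%, against 14.8% of all genes) and 2 rose (9.52%, against 20.0%). The falls were 4 with the ACTB covariate and 5 without siYAP array 2 or with the 6 erastin arrays alone, and the rises 1 with that covariate or the mean of probe sets and without siNT array 2 or siYAP array 1 or 3. After PLOD2, FKBP14 fell by 0.94, the crosslinking enzyme gene TGM2 by 0.93 and P4HA1, a prolyl hydroxylase, by 0.63.

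Of 30 integrin and focal adhesion genes 5 fell (16.7%, near the 14.8% of all genes) and 4 rose (13.3%, a smaller share than the 20.0% of all genes). With the ACTB covariate 3 fell and 2 rose, and with array weights 8 fell. ITGB3, the beta subunit of the vitronectin receptor, read 9.13, 9.25 and 9.29 against 7.25, 7.58 and 7.22. FERMT2, an integrin activator, read 9.43, 9.38 and 9.56 against 10.75, 10.65 and 10.70. Of 36 TGF-beta, activin and BMP genes 9 fell (25.0%) and 3 rose (8.33%, a smaller share than that of all genes), 4 and 5 with the ACTB covariate. With the mean of probe sets 5 fell, and 5 to 6 rose with array weights, quantile normalization, a trended robust variance or dim probe sets removed. The receptor genes TGFBR3 and TGFBR2 rose by 1.06 and 0.75, the latter not on its other probe set, and the BMP-induced gene ID1 fell by 0.72. SMAD4 (-0.46, adjusted p = 0.047) was not called without siNT array 3 or without any siYAP array, with adjusted p up to 0.172, nor with the ACTB covariate (adjusted p = 0.842).

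Of 42 EGF ligands, MAPK feedback and immediate early genes 14 rose (33.3%, against 20.0% of all genes) and 3 fell (7.14%, against 14.8%). The falls were 1 with the ACTB covariate and 5 without siNT array 2, with dim probe sets removed or with the mean of probe sets. They were 6 with array weights or arrays centred on their medians. SPRY2, a feedback inhibitor of receptor tyrosine kinases, read 8.12, 8.14 and 8.27 against 9.50, 9.41 and 9.50, and HBEGF, an EGF receptor ligand, read 8.70, 8.74 and 8.90 against 9.71, 9.62 and 9.69. RGS4 rose by 0.79 and the MAPK phosphatase genes DUSP4 and DUSP8 by 0.69 and 0.61. Of 22 tubule and renal carcinoma genes 8 rose (36.4%, against 20.0% of all genes) and 3 fell (13.6%, near the 14.8% of all genes). EPCAM read 7.90, 7.71 and 8.38 against 8.99, 8.95 and 9.11, the keratin gene KRT7 rose by 0.88 and the kidney lineage factor gene PAX2 by 0.65, neither of them called on its other probe set. AGT and SLC4A4, both known from the proximal tubule, moved in opposite directions.

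Subunits of the respiratory chain rose by small amounts. Of 28 complex I genes 16 rose (57.1%, against 20.0% of all genes) and 2 fell (7.14%, against 14.8%), with a median of 0.20. Of 33 genes of complexes III to V and cytochrome c 19 rose (57.6%) and 2 fell (6.06%), with a median of 0.18. NDUFB2 read 12.29, 12.30 and 12.22 against 12.72, 12.77 and 12.76, and UQCR10 read 11.72, 11.80 and 11.79 against 12.14, 12.19 and 12.17. NDUFA8 rose by 0.55 and COX6B1 by 0.39, while NDUFS1 fell by 0.47 and ATP5PO by 0.31, the latter not on its other probe set. These counts depended on the processing. With the ACTB covariate 10 complex I and 7 complex III to V genes rose, and for the latter list 11 rose with arrays centred on their medians and 12 without siYAP array 3. The complex I falls were 1 with that covariate and without siNT array 3 or siYAP array 2 or 3.

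Cytosolic ribosomal proteins gave a flat comparison: in limma 0 of 51 were called, also at an unadjusted p of 0.05, with a median of 0.02. Up to 3 were called higher with quantile normalization or a trended robust variance, and 1 higher and 1 lower with the mean of probe sets. RPL41 read 14.38, 14.34 and 14.33 against 14.36, 14.38 and 14.38, and at this level the scale is near its top. Of 32 proteasome genes 6 fell (18.8%, against 14.8% of all genes) and 2 rose (6.25%, against 20.0%). PSMD10 fell by 0.53, PSMC3 by 0.43 and PSMD2 by 0.37.

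Of 36 genes of glycolysis and hypoxia-inducible factor targets 15 fell (41.7%, against 14.8% of all genes) and 7 rose (19.4%, near the 20.0% of all genes). ADM, adrenomedullin, read 9.98, 9.93 and 10.22 against 8.76, 8.75 and 8.77, and CA12, a carbonic anhydrase, read 10.14, 10.02 and 10.01 against 11.30, 11.25 and 11.36. NDRG1 fell by 0.98 and the glucose transporter gene SLC2A3 by 0.82. Of 32 serine, folate, polyamine and purine enzymes 12 fell (37.5%) and 5 rose (15.6%, a smaller share than that of all genes). SAT1, which acetylates polyamines for export, rose by 0.86 and SRM by 0.40, and CTPS1, IMPDH2 and ADSL fell by 0.51, 0.35 and 0.35.

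Protein folding genes were mixed. Of 22 genes of endoplasmic reticulum chaperones and the unfolded protein response 8 fell (36.4%) and 4 rose (18.2%, near the 20.0% of all genes). The falls were 5 with the ACTB covariate, in a fit of the 6 erastin arrays alone, with the replicate block and without any array but siYAP array 3. EDEM1, which sends misfolded glycoproteins to degradation, read 7.46, 7.53 and 7.68 against 8.38, 8.49 and 8.44. XBP1, a transcription factor of that response, read 9.70, 9.54 and 9.83 against 9.33, 9.28 and 9.25, but did not hold with the covariate (adjusted p = 0.0513). PDIA3 fell by 0.36 and PDIA4 by 0.44, the latter not with that covariate (adjusted p = 0.0501) or on its other probe set. Of 23 cytosolic heat shock genes 7 rose (30.4%, against 20.0% of all genes) and 5 fell (21.7%, against 14.8%). Without siYAP array 1, 2 or 3 the rises were 4 and the falls 2 to 3. The falls were also 3 without siNT array 3 or with the replicate block. With the ACTB covariate 2 fell, and with a trended robust variance 11 rose. CRYAB, a small heat shock protein, read 10.46, 10.54 and 10.44 against 11.49, 11.51 and 11.48, and CCT2 fell by 0.34.

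**Figure D5:**
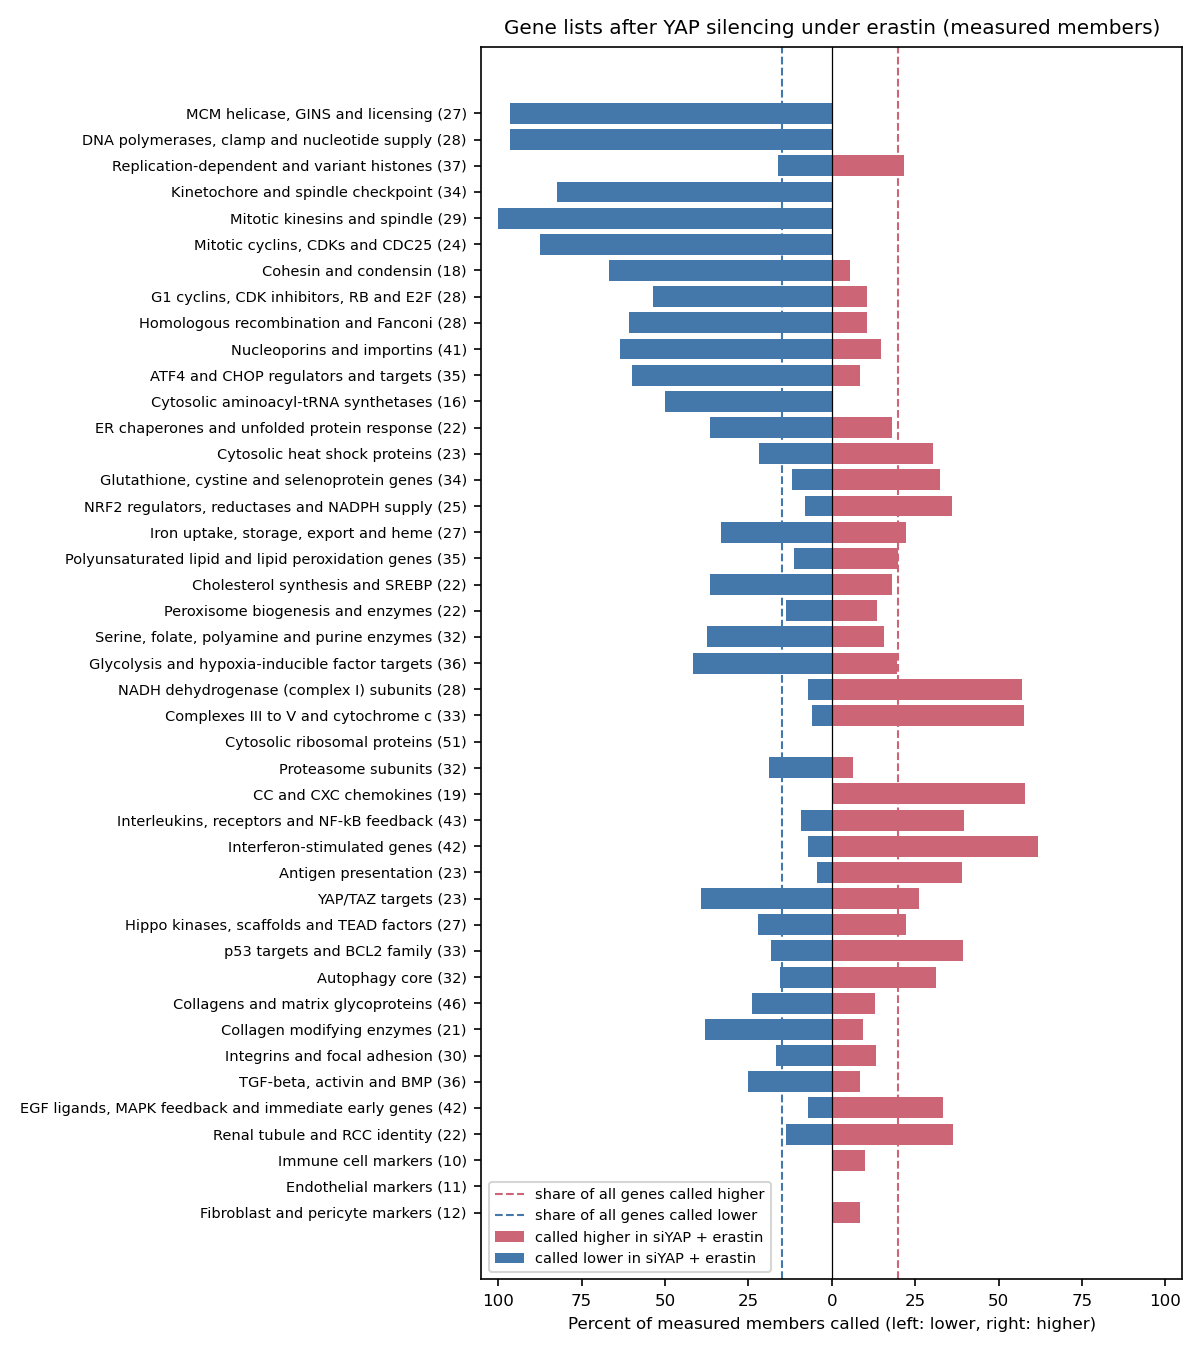
Share of measured members of each of 43 gene lists called lower (left) or higher (right) in siYAP cells under erastin, with the number measured in brackets; dashed lines mark the shares of all genes, 14.8% lower and 20.0% higher. The lists of MCM helicase, DNA polymerases, kinetochore, mitotic kinesins and mitotic cyclins extend to 82.4 to 100% on the left. Cohesin and condensin extend to 66.7% and histones to 16.2%. Respiratory chain, chemokine and interferon lists extend to 57.1 to 61.9% on the right.

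Whether silencing acted differently under erastin and in DMSO was tested for each gene by the interaction of siRNA and treatment. In limma 0 of 11963 genes passed (0.0%), and 1179 (9.86%) had an unadjusted p under 0.05. The lowest adjusted p, 0.153, was that of SLC1A4, whose fall was 0.84 under erastin and 1.46 in DMSO. A fit with array weights called 1 gene, SLC1A4, and a trended robust variance called 8: SLC1A4, ALDH1A1, ATF3, GDF15, HLA-G, JAG1, TMEM158 and TXNIP. On the ATF4 list 17 of 35 members had an unadjusted interaction p under 0.05 and none passed adjusted; values for INHBE were -1.26 under erastin and -1.82 in DMSO, for DDIT4 -1.17 and -0.80, and for SLC7A1 -0.91 and -1.27. CCL20 (3.49 and 2.81), CCL2 (1.48 and 1.02) and BCL2A1 (1.12 and 0.41) had larger values under erastin and AGT (2.19 and 2.71) a smaller one, none of which passed the interaction test.

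The 6 genes called in opposite directions in the 2 treatments were CITED2, DUSP7, MYL9, TRAF5, TUBBP5 and TXNIP. TXNIP, an inhibitor of thioredoxin and of glucose uptake, read 10.81, 10.98 and 10.94 against 10.74, 10.68 and 10.71, 0.20 lower under erastin, and was 0.29 higher in DMSO. CITED2, a competitor of hypoxia-inducible factors, was 0.22 lower under erastin and 0.20 higher in DMSO. The other 4 were higher by 0.19 to 0.23 under erastin and lower in DMSO. All 6 differences were small, and each lost its call in at least 6 of the 15 alternative fits.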

How the data were processed

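Gene expression was measured on 12 arrays, 3 in each of 4 groups. The values are log2 intensities that the authors deposited as a series matrix; they used RMA in Affymetrix Expression Console, per the submitters' processing notes. Which array type, scan dates and siRNA sequences were used is not given in the sources used here. The number of arrays limits the precision. Of 22277 probe sets 62 were controls, 19065 had 1 gene symbol, 1043 several and 2107 none in GEO's platform annotation; 19053 were matched to RefSeq by gene ID. Each of 11963 genes was read by its brightest probe set, judged by the mean of all 12 arrays.

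limma (3.58.1, R 4.3.3) fitted 4 group means with 8 residual degrees of freedom. Adjusted p-values are limma's with Benjamini-Hochberg over 11963 genes, and a gene was called under 0.05. The median SE was 0.078. On simulated data with known changes added to the comparison under erastin over 11963 genes, 72% of changes of 0.5 and 100% of changes of 1 were recovered. Far fewer genes were changed there than were called here, so the adjusted threshold and the recovery can differ in these data. Most genes called here moved by less than 0.5, for which no recovery is given. The members and gene lists were chosen with earlier results of these data known.

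Genes were named by rule: YAP1 and WWTR1, the 15 largest rises and falls with non-overlapping arrays, up to 5 called members per list by size (up to 2 by level where none was called), and genes called in opposite directions in both treatments. ACTBP9, B3GNT2, SLC7A11, GPX4, ATF3 and genes named for their interaction were chosen after their values were seen. Promoters are RefSeq's (GRCh38.p14), 250 bases before to 50 after the first listed start. They were matched for 9562 of 11963 genes (79.9%), just under the 80% set for a share, so shares are given only for sets with at least that coverage; intervals cover counting error only. TEAD and AP-1 motifs were searched too; the lists they belong to had too few promoters for a share. Alternatives were other scalings, filters, probe set rules, variance models, array sets, a replicate block, the ACTB covariate and leaving out each erastin array.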

Additional observations from a re-analysis of the deposited data

Results flagged for a closer look

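Probe sets outside the 11963 genes also passed the test. Of 2107 probe sets with no gene symbol 333 were called under erastin, 171 higher and 162 lower, 19 of them at least 2-fold. Of 1043 probe sets with several symbols 287 were called, 165 higher and 122 lower, 12 of them at least 2-fold. Both are named here because they lie in data that the comparison of genes left out, and no genes are named from them.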

How the results depend on the processing

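The genes called under erastin numbered 4173, and 3065 to 5064 in the fits with other settings (1792 to 2820 higher, 1273 to 2244 lower); the ACTB covariate gave the fewest and array weights the most. Leaving out each erastin array in turn gave 3443 to 4158 calls, 1987 to 2368 higher and 1456 to 1790 lower. With at least 2-fold required 316 were called, and with the zero transformation that the submitters describe, all 3 siYAP arrays beyond 1 log2 unit from the siNT mean, 219. The interaction gave 0 calls, 1 with array weights and 8 with a trended robust variance, and 0 without each array in turn. YAP1 ranged from -3.31 to -3.07 over other settings and from -3.76 to -2.99 without each array; no other probe set of YAP1 was there to try. With genes at least 2-fold in DMSO the response of siYAP arrays 1, 2 and 3 was 1.27, 1.27 and 1.33 for higher and -1.28, -1.004 and -1.22 for lower genes.

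With the replicate block 3972 genes were called, 2288 higher and 1684 lower. The array titles do not say whether equal numbers mark paired samples. Deviations of same-numbered arrays correlated at 0.0243, -0.0135 and 0.190 under erastin and at -0.0947, 0.0252 and 0.0917 in DMSO. Under erastin siYAP array 1 correlated best with siNT array 2 (0.219), and siYAP arrays 2 and 3 with siNT array 3 (0.0367 and 0.190). With 3 arrays per group such weak correlations cannot settle whether samples were paired.

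Of the 220 genes that the naming rule picks, not all of which are printed, 21 lost the call or turned in at least 1 setting; GPX4, ACTBP9 and B3GNT2, outside that rule, lost it with the ACTB covariate. LAMP2 turned from 0.64 to -0.73 with the mean of probe sets. Of 1290 list counts under alternatives 92 moved by over 1.5 times, 21 of them with the ACTB covariate. Of 96 motif shares 39 moved beyond their interval with another window or, chosen after seeing the data, any listed start. The interaction has no value in a fit of the 6 erastin arrays alone. Causes were not tested.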
